A study of Mus musculus with 36 samples.

Results

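A set of 9 autosomal germline genes, of 55401 genes counted, was followed through the transition of mouse ESCs to EpiLCs and through the loss of Polycomb accessory proteins. The members were taken by name: Dazl, Ddx4, Mael, Tex19.1, Sycp1, Sycp3, Hormad1, Stk31 and Tex101. RNA-seq was available for 36 libraries in 12 groups of 3. ESCs, the cultured counterpart of the naive inner cell mass, were grown with serum, LIF and the inhibitors CHIRON99021 (3 μM, against GSK) and PD0325901 (1 μM, against MEK). EpiLCs, which resemble the early post-implantation epiblast, were made from them on fibronectin over 2 days with 20 ng/ml Activin A, 12 ng/ml bFGF and KSR.

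The mutants were QKO (no JARID2 and no PHF1, MTF2 or PHF19, together the Polycomb-like proteins), TKO (without the Polycomb-like proteins only) and J2KO (no JARID2), each at both stages, and Pcgf2/4 KO as EpiLCs. Their wild-type counterparts were PclWT for QKO and TKO, J2WT for J2KO, and a line called WT for Pcgf2/4 KO. All lines were given as C57BL/6. Polycomb-like proteins define PRC2.1 and JARID2 defines PRC2.2, the forms of the complex that trimethylates H3K27. PCGF2 and PCGF4 (BMI1) build canonical PRC1. Each mutant line was compared with a separate wild-type line, so effects of a mutation and other differences between lines cannot be told apart. No label says that the 3 libraries of a group were separate cultures, so the p-values rest on library-to-library spread that could be technical.

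Germline genes of this kind are silent in most somatic cells. Many have CpG-rich promoters that are methylated after implantation, and in pluripotent cells a variant PRC1 complex (PRC1.6, with PCGF6, MGA, MAX, L3MBTL2 and E2F6) binds their E-box and E2F motifs. Among the members, Dazl and Ddx4 encode RNA-binding proteins of germ cells. Mael encodes a piRNA pathway factor, and Tex19.1 encodes a protein that restrains retrotransposons in germ cells and placenta. Sycp1, Sycp3 and Hormad1 encode parts of the meiotic chromosome axis and synaptonemal complex. Stk31 encodes a Tudor-domain kinase-like protein of the testis and Tex101 a germ cell surface glycoprotein.

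The positions below are on GRCm38. Dazl (ENSMUSG00000010592) lies at chr17:50279395-50293636 and Ddx4 (ENSMUSG00000021758) at chr13:112598333-112652475, both on the minus strand. Mael (ENSMUSG00000040629) lies at chr1:166201201-166238747 on the minus strand and Tex19.1 (ENSMUSG00000039329) at chr11:121146143-121148319 on the plus strand. Sycp1 (ENSMUSG00000027855) lies at chr3:102818499-102936100 on the minus strand, Sycp3 (ENSMUSG00000020059) at chr10:88459569-88473236 and Hormad1 (ENSMUSG00000028109) at chr3:95559677-95587671, both on the plus strand. Stk31 (ENSMUSG00000023403) lies at chr6:49395604-49469501 on the plus strand and Tex101 (ENSMUSG00000062773) at chr7:24668007-24676675 on the minus strand. All 9 are annotated as protein coding.

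Promoter sequence was taken from RefSeq on GRCm38.p6 for all 9 members, as 300 bases from 250 before to 50 after the annotated start. Windows of the 4 members that rose in EpiLCs over ESCs in both TKO and QKO are shown first, and that of Tex19.1, which was lower than in PclWT in QKO and TKO at both stages, after them. Capitals mark the E-box CACGTG (its own complement), the E2F core GCGGGA on either strand (TCCCGC on the other) and the NRF1 palindrome. No match overlapped another in these windows, which are printed 5′ to 3′ on the gene's strand.

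The Mael window is chr1:166238695-166238994, that of Ddx4 chr13:112652261-112652560, that of Sycp1 chr3:102936051-102936350, that of Sycp3 chr10:88459337-88459636 and that of Tex19.1 chr11:121145893-121146192.
Mael: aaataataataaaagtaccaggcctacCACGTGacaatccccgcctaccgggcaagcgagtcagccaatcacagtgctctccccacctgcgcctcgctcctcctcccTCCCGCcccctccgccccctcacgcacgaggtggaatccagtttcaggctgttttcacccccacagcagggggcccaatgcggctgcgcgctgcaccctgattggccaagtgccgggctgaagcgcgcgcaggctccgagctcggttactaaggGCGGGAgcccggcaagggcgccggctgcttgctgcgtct
Ddx4: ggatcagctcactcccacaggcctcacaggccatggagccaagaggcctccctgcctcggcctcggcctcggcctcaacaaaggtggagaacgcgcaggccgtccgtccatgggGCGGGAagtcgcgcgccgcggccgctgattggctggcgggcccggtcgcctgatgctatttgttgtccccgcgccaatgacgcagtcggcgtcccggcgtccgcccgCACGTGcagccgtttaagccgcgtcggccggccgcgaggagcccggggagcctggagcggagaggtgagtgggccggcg
Sycp1: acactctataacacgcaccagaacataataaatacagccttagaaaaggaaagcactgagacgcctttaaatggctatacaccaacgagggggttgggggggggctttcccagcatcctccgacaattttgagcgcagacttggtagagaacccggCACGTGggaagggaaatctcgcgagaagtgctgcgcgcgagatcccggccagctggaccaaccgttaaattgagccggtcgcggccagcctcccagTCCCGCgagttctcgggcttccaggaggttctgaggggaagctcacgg
Sycp3: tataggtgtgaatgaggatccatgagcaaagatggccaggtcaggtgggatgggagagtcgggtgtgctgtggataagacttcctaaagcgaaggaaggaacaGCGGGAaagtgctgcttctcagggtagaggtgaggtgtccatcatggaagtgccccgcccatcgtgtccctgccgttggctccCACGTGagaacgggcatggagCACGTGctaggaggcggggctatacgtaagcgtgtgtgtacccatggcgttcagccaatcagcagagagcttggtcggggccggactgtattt
Tex19.1: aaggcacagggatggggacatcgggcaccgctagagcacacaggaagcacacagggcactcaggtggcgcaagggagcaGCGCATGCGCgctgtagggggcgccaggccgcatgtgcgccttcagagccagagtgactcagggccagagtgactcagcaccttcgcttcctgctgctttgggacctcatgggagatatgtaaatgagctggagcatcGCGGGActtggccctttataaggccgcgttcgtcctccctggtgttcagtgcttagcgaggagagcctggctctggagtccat

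The E-box was in the window of 6 of the 9 members, namely Mael, Ddx4, Sycp1, Sycp3, Hormad1 and Stk31, and in 7.15% of 32851 promoter windows of the same length. The E2F core was in 6 members (Mael, Ddx4, Sycp1, Sycp3, Hormad1 and Tex19.1) and in 20% of windows. Both stood together in 5 members and in 1.99% of windows. The NRF1 palindrome was in 3 members (Tex19.1, Hormad1 and Stk31) and in 0.971% of windows. The members held 15 to 38 CpG dinucleotides per window, where the median window held 7. All 3 motifs contain CpG, and the shares are over all windows rather than windows of like CpG content. What part CpG content has in the higher shares of the members was not tested. Dazl, with 28 CpGs, and Tex101, with 19, held none of the 3 motifs, and the RefSeq start of Tex101 lay 4625 bases from its start in the GENCODE annotation used for positions. Hormad1 and Stk31 each have a second annotated start close by, with the same motifs in its window. These matches are a description of sequence and say nothing on binding.

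**Figure D1:**
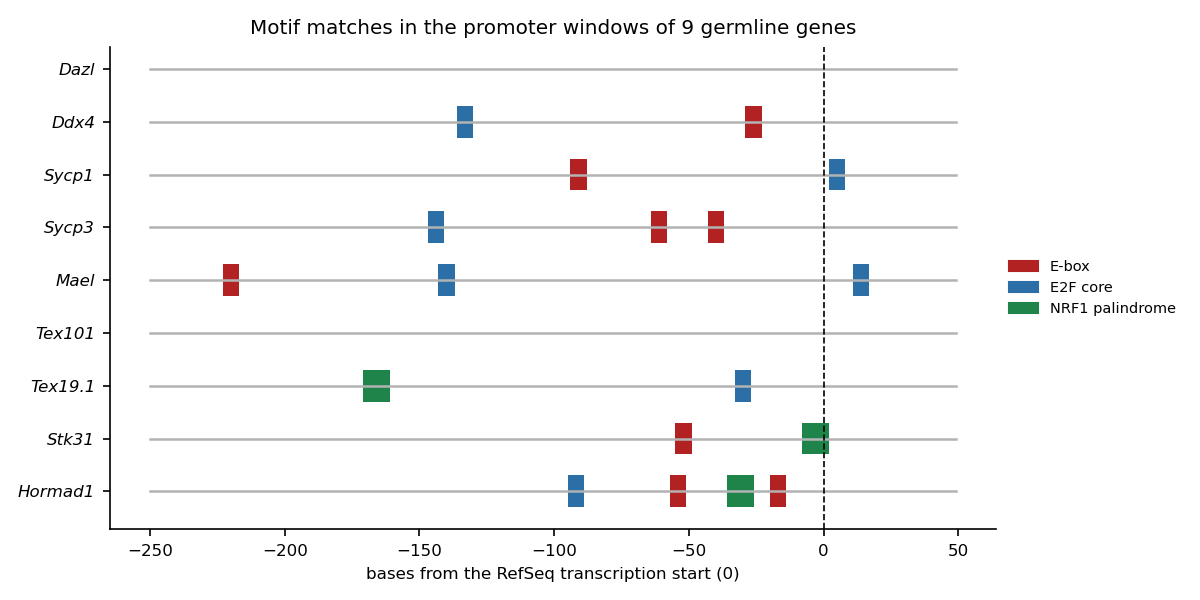
Motif matches along the promoter window of each member, by distance in bases from the RefSeq transcription start (dashed line), in which red blocks are E-boxes, blue blocks E2F cores and green blocks NRF1 palindromes. The 6 members with an E-box carry it between positions -223 and -15, while Dazl and Tex101 have no block.

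The libraries held 6784578 to 18026492 reads in genes (median 10472704), and groups of the J2 lines were sequenced deeper (15924615 to 18026492) than those of the Pcl lines (6784578 to 11253158). Naive pluripotency markers separated the stages. The summed level of 11 naive markers was 392 to 1790 CPM (reads scaled to a fixed library size) in EpiLC libraries, against 4260 to 6890 CPM in ESC libraries. Fgf5 and Otx2, markers of the EpiLC state, were low in EpiLCs of the Pcl lines. Fgf5 had means of 0.896 CPM in PclWT, 3.99 in TKO and 1.71 in QKO EpiLCs, against 19.8 to 118 CPM in the other EpiLC groups. Otx2 had 3.39, 13.2 and 59.1 CPM in the same order, against 117 to 340 CPM. Dnmt3a, another such marker, was not low in TKO and QKO EpiLCs (1490 and 2610 CPM). What part this has in the results on the Pcl lines was not tested. The targeted genes checked the labels in part. Mtf2 was 34.6 to 48.8 CPM in QKO and TKO libraries, against 198 to 422 CPM in PclWT libraries, and Phf1 was at most 0.762 CPM against at least 6.2 CPM. Jarid2 RNA was only lower in part (502 to 511 CPM in J2KO EpiLCs, against 766 to 774 CPM in J2WT EpiLCs) and was not lower in QKO EpiLCs, and Phf19 in TKO, Pcgf2 and Bmi1 overlapped their WT libraries. Because reads were summed over the whole gene, RNA from a gene with a deleted part is still counted, and these genes do not check their labels. PclWT EpiLC replicate 1 stood apart from its group, with 1609 and 1820 genes more than 2-fold from replicates 2 and 3, where no other pair of replicates had more than 87 such genes. Its rRNA genes held 1.312% of reads and 28.81% of its reads lay in no gene. QKO EpiLC replicate 2 had 4.472% of reads in rRNA genes and 30.24% of reads in no gene, the highest of all libraries. The chi-square of counts per degree of freedom, a measure of how far libraries differ beyond counting error, was 30.1 and 36 against its replicates, and 4.88 and 5.63 with rRNA genes left out, where PclWT EpiLC replicate 1 kept 60.9 and 67.5. Calls of members that rest on either library are also given without it, and those of other genes only where stated. Markers of fibroblasts, 10 genes, summed to 8.19 to 30.2 CPM. They moved with stage in the J2 lines (25.8 to 30.2 CPM in EpiLCs, against 8.19 to 18.6 CPM in ESCs), but not all one way. In J2WT 3 of 5 tested were called higher (Thy1, Dcn and Col1a2) and 2 lower, with Pdgfrb at 2.53 CPM in EpiLCs, against 12.5 CPM in ESCs, and Col1a1 at 0.746 CPM in EpiLCs, against 2.43 CPM in ESCs. In J2KO 4 of 5 were called higher and none lower, and Dcn was at 0 in J2KO ESCs. Their part in the results on J2 stages was not tested.

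Levels of the members covered a wide range. Per length, the median over libraries was 48.8 RPKM (reads scaled by exon length and library size) for Tex19.1, 21.2 for Mael and 10.5 for Hormad1. It was 6.82 for Stk31, 6.68 for Ddx4, 5.8 for Dazl, 4.4 for Sycp3, 3.3 for Sycp1 and 1.05 for Tex101. Tex19.1 was thus the member with the most RNA and Tex101 the one nearest the limit of counting, with 1 to 95 reads per library. Below, levels of 1 gene across groups are CPM scaled by TMM. The ratio of the highest to the lowest group mean was largest for Mael (39.2), Ddx4 (20.2), Tex101 (20.1) and Sycp3 (14.7), and smallest for Stk31 (2.3). In these bulk samples a change in the share of cells that transcribe a gene and a change in RNA per cell cannot be told apart.

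QKO EpiLCs had the highest mean of all 12 groups for 4 members (Mael, Ddx4, Sycp1 and Dazl). For Mael the order by group mean ran from 115 CPM in QKO EpiLCs through 90.2 in Pcgf2/4 KO EpiLCs, 80.5 in WT EpiLCs, 79.3 in TKO EpiLCs, 53.5 in J2KO EpiLCs, 40.2 in J2WT EpiLCs and 27.3 in PclWT EpiLCs to the ESC groups. Its 5 ESC groups lay at 17.2 (QKO), 13.4 (PclWT), 8.01 (TKO), 3.84 (J2KO) and 2.93 (J2WT) CPM. All EpiLC groups of Mael were thus above all ESC groups, and its only neighbours with overlapping libraries were WT with TKO EpiLCs and J2KO with J2WT ESCs.

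Dazl did not order by stage. Its highest groups were QKO EpiLCs (51.6 CPM) and PclWT ESCs (47.1 CPM), which overlapped, and its lowest was QKO ESCs (14.8 CPM). Dazl was 33.7 CPM in J2KO EpiLCs, which stood clear of the groups on either side. J2KO and J2WT ESCs followed at 26 and 26.2 CPM, overlapping, and the other 6 groups lay between 16.9 and 21.1 CPM with overlapping neighbours.

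For Ddx4, a DEAD-box RNA helicase known as mouse Vasa homologue, QKO EpiLCs (55.3 CPM) and TKO EpiLCs (49.6 CPM) stood above every other group. The next 6 groups, PclWT EpiLCs to TKO ESCs, lay from 26.4 to 16.7 CPM and overlapped with their neighbours. J2KO and J2WT EpiLCs had 13.3 and 11.4 CPM, and J2KO and J2WT ESCs had 3.37 and 2.74 CPM. Sycp1 likewise had its highest means in QKO (28.4 CPM) and TKO (24.2 CPM) EpiLCs, each clear of the next, and its other 10 groups from 15.5 to 8.01 CPM formed an unbroken chain of overlaps.

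Sycp3 was highest in J2KO EpiLCs (24.2 CPM), then in Pcgf2/4 KO and WT EpiLCs (14.5 and 15.3 CPM, overlapping), J2WT EpiLCs (9.02 CPM), QKO and TKO EpiLCs (5.64 and 6.41 CPM, overlapping) and PclWT EpiLCs (3.94 CPM, overlapping PclWT ESCs), and the ESC groups lay between 3.14 and 1.65 CPM. Hormad1 separated by line more than by stage. It was 47.1 to 77.8 CPM in Pcgf2/4 KO, WT, J2KO and J2WT EpiLCs, 25.9 and 32.8 CPM in J2KO and J2WT ESCs, and 7.09 to 10.7 CPM in all 6 groups of the Pcl lines.

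Tex19.1 was highest in PclWT EpiLCs and ESCs (500 and 408 CPM, overlapping) and lowest in TKO EpiLCs and ESCs (52.3 and 52.9 CPM, overlapping). Between them lay J2KO EpiLCs and ESCs (234 and 137 CPM) and QKO EpiLCs and ESCs (102 and 125 CPM), each clear of its neighbours, and the J2WT, Pcgf2/4 KO and WT groups from 84.4 to 56.4 CPM. Stk31 spanned 35.3 (J2WT ESCs) to 15.4 CPM (TKO ESCs). Tex101 was 4.99 CPM in J2WT ESCs, clear of the rest, and its other 11 groups fell from 2.97 to 0.249 CPM with every neighbour overlapping.

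**Figure D2:**
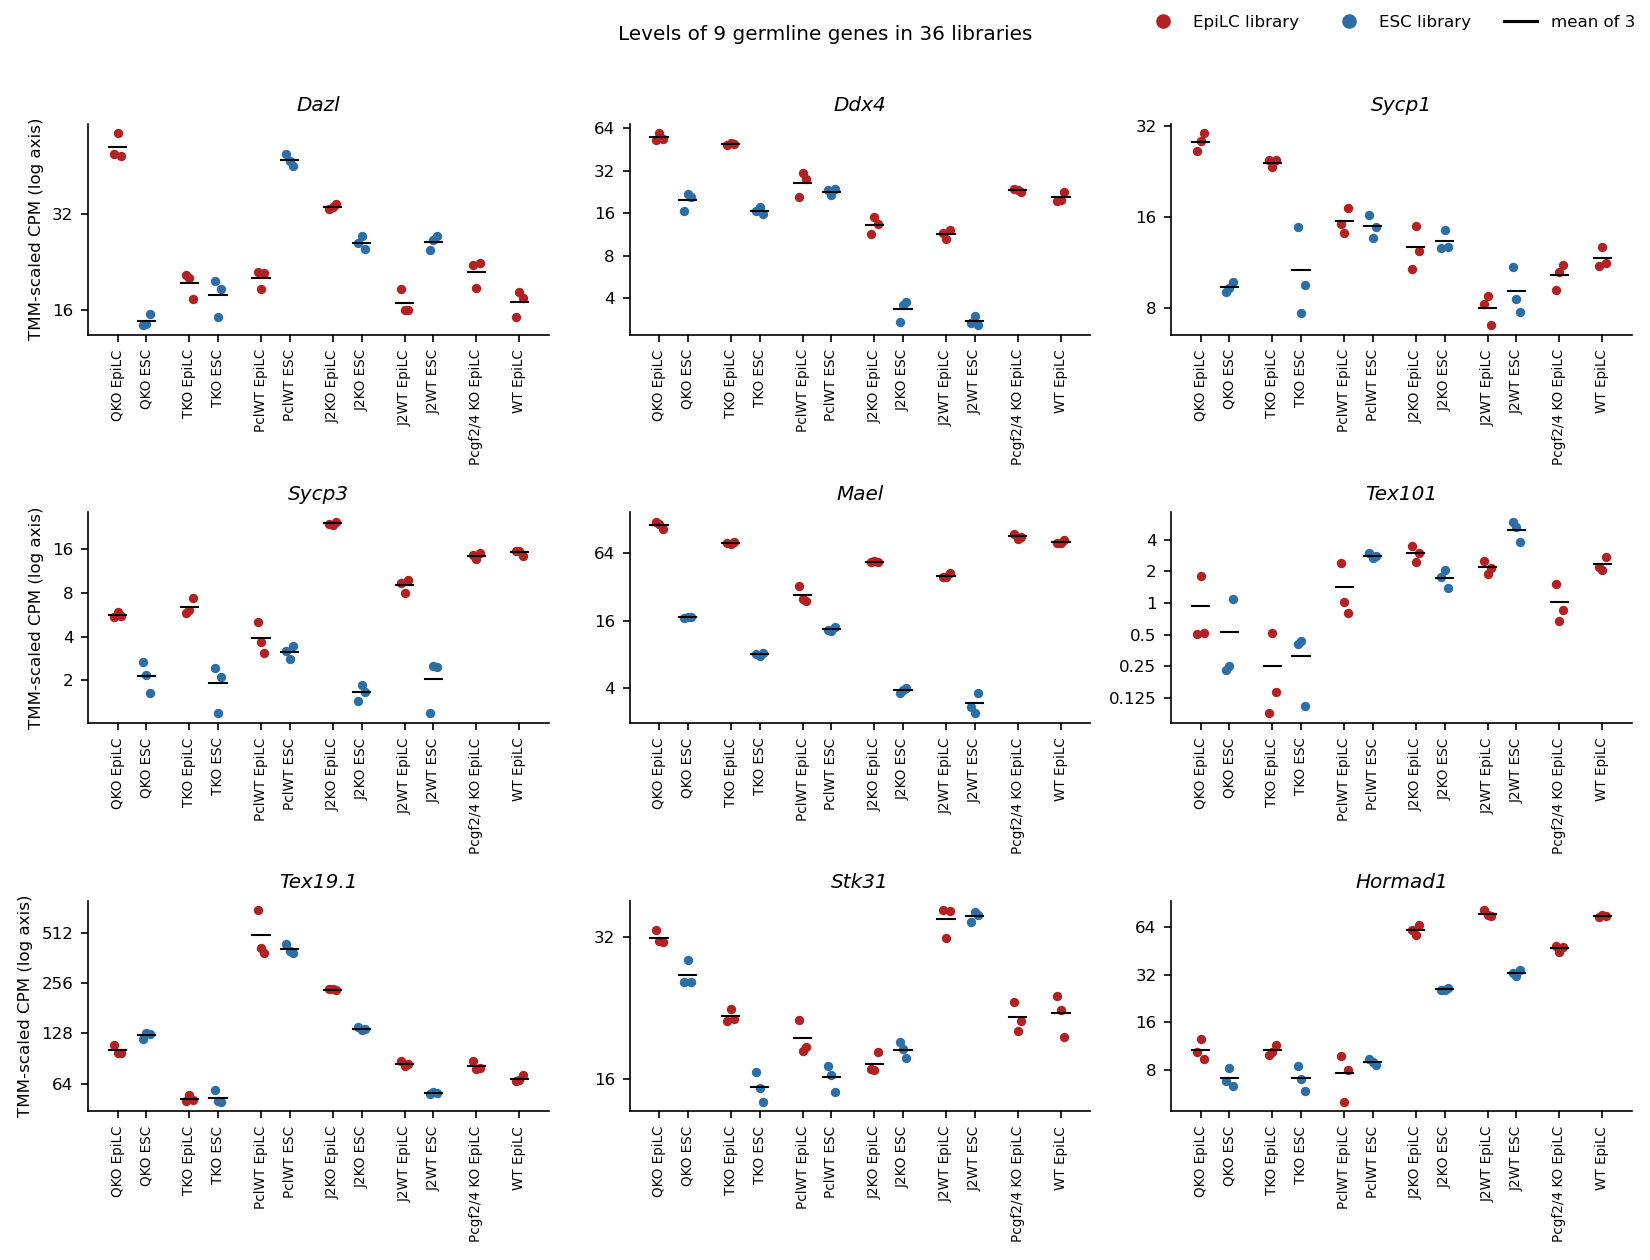
Level of each member in every library, in TMM-scaled CPM on a log axis, with red points for EpiLC libraries, blue points for ESC libraries and a black bar for the mean of 3. Mael lies at 23.9 CPM or more in every EpiLC library and at 17.3 CPM or less in every ESC library, whereas Hormad1 separates more by line than by stage and Dazl by neither.

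The transition of the wild-type lines was examined first, with edgeR's quasi-likelihood test on the 6 libraries of a comparison. A gene was called when its Benjamini-Hochberg adjusted p over all genes tested was under 0.05 and its change exceeded 2-fold, and "rose" and "fell" below refer to called genes. In J2WT, 4 of 9 members rose (Mael, Sycp3, Ddx4 and Hormad1) and 1 fell (Tex101), where 15.4% of 13877 genes were called higher and 14.8% lower. In PclWT, 1 of 9 rose (Mael) and 1 fell (Dazl), where 9.21% of 12764 genes were called higher and 6.2% lower. The median log2 fold change of the members was 0.60 in J2WT and 0.23 in PclWT, against -0.01 and 0.02 over all genes. When PclWT EpiLC replicate 1 was left out, none of 9 members rose in PclWT and 2 fell (Dazl and Tex101), where 9.83% of genes were called higher and 6.82% lower. Tex101 met the minimum mean count of 15 through the PclWT ESC libraries (81 reads, against 40 in all PclWT EpiLC libraries), which favours a fall.

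Mael had 38.9, 39.1 and 42.6 CPM in J2WT EpiLCs, against 2.74, 2.39 and 3.65 CPM in J2WT ESCs, a log2 fold change of 3.80 (SE 0.10, adjusted p = 2.46e-20). In PclWT it had 32.9, 25 and 23.9 CPM in EpiLCs, against 13.1, 12.9 and 14.2 CPM in ESCs, a log2 fold change of 1.04 (SE 0.16, adjusted p = 0.00319). Its libraries did not overlap between stages in either line, and the PclWT call rests on the library that stood apart, since without PclWT EpiLC replicate 1 the change was 0.89, below the 2-fold limit. The stage change of Mael was smaller in PclWT than in J2WT by 2.75 on the log2 scale (log2 difference -2.75, SE 0.22, adjusted p = 2.53e-06).

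Ddx4 had 11.6, 10.5 and 12.2 CPM in J2WT EpiLCs, against 2.68, 2.97 and 2.58 CPM in J2WT ESCs (log2 fold change 2.08, SE 0.12, adjusted p = 1.91e-13). In PclWT it had 20.8, 30.6 and 27.8 CPM in EpiLCs, against 23.3, 21.4 and 23.7 CPM in ESCs (log2 fold change 0.23, SE 0.17, adjusted p = 0.359). The PclWT libraries of Ddx4 overlapped between stages, with EpiLC replicate 1 the lowest of all 6, and without it the change was 0.38 (adjusted p = 0.00196). Dazl, by contrast, was lower in EpiLCs of both lines. It had 21, 18.6 and 20.9 CPM in PclWT EpiLCs, against 49.3, 46.8 and 45.1 CPM in PclWT ESCs (log2 fold change -1.21, SE 0.11, adjusted p = 4.02e-04, and -1.23 without replicate 1 of the EpiLCs), and 18.6, 16 and 16 CPM in J2WT EpiLCs, against 24.7, 26.6 and 27.3 CPM in J2WT ESCs (log2 fold change -0.61, SE 0.07, adjusted p = 7.63e-08, under the 2-fold limit).

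Among the meiotic chromosome genes, Sycp3 had 9.32, 7.98 and 9.77 CPM in J2WT EpiLCs, against 1.18, 2.51 and 2.46 CPM in J2WT ESCs (log2 fold change 2.16, SE 0.17, adjusted p = 4.55e-11). In PclWT its libraries overlapped, at 5.03, 3.68 and 3.1 CPM in EpiLCs and 3.2, 2.78 and 3.45 CPM in ESCs (log2 fold change 0.33, adjusted p = 0.334, and 0.13 without PclWT EpiLC replicate 1). Sycp3 shares 660 exon bases with Chpt1, a phospholipid synthesis gene on the opposite strand, and reads from shared bases were counted for neither gene. Chpt1 moved the other way, with a mean of 8.37 CPM in J2WT EpiLCs, against 33.8 CPM in J2WT ESCs (log2 fold change -1.99), and what that does to the count of Sycp3 was not tested.

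Hormad1, which loads on unsynapsed axes, had 82, 75.9 and 75.5 CPM in J2WT EpiLCs, against 32.6, 31.5 and 34.3 CPM in J2WT ESCs (log2 fold change 1.27, SE 0.05, adjusted p = 1.88e-16). PclWT libraries overlapped for Hormad1 at 9.84, 5.01 and 8.01 CPM in EpiLCs and 9.4, 8.99 and 8.57 CPM in ESCs, and without PclWT EpiLC replicate 1 the change was -0.44 (adjusted p = 0.0425). Sycp1, the transverse filament protein, overlapped between stages in both lines. Tex101 fell in J2WT, with 2.5, 1.9 and 2.17 CPM in EpiLCs, against 5.92, 5.29 and 3.78 CPM in ESCs (log2 fold change -1.16, SE 0.18, adjusted p = 3.44e-06). In PclWT its libraries were lower in EpiLCs but did not pass the test (SE 0.39, adjusted p = 0.0977), and the change was -1.60 without PclWT EpiLC replicate 1 (adjusted p = 2.46e-04). Tex19.1 and Stk31 were called in neither line, and in PclWT they were 0.31 and 0.29, or -0.01 and 0.22 without that library.

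Between the wild-type lines, the stage changes of 4 members were smaller in PclWT than in J2WT (Mael, Ddx4, Sycp3 and Hormad1, log2 differences -2.75, -1.84, -1.81 and -1.48) and none was larger, where 10.1% of 13463 genes were called for a difference below 0 and 11.3% for one above 0. Without PclWT EpiLC replicate 1 these differences were -2.91, -1.70, -2.02 and -1.71. The formative markers of the EpiLC state were also lower in PclWT EpiLCs. The summed level of 10 such genes was 1090 to 1250 CPM in PclWT EpiLCs and 4160 to 4250 CPM in J2WT EpiLCs, with 359 to 383 and 326 to 338 CPM in the matching ESCs. Their part in the smaller change of the germline genes was not tested.

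In the mutants, 4 or 5 members rose in the transition, beside 4 in J2WT and 1 in PclWT. In QKO, 5 of 8 tested members rose and none fell, where 12.2% of 12498 genes were called higher and 7.01% lower. In TKO, 4 of 8 rose and none fell, where 14% of 12684 genes were called higher and 8.61% lower. In J2KO, 4 of 9 rose and none fell, where 15.2% of 13841 genes were called higher and 12% lower. Without QKO EpiLC replicate 2 the same 5 members rose in QKO, with values from 1.38 to 2.74, where 11.6% of all genes were called higher and 7.37% lower. Tex101 was below the minimum mean count of 15 in QKO and TKO and was not tested there.

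Mael rose in all 3 mutants. It had 122, 116 and 105 CPM in QKO EpiLCs, against 16.9, 17.3 and 17.3 CPM in QKO ESCs (log2 fold change 2.74, SE 0.07, adjusted p = 6.85e-20). TKO EpiLCs had 79.6, 77.5 and 80.9 CPM, against 8.16, 7.71 and 8.17 CPM in TKO ESCs (log2 fold change 3.34, SE 0.07, adjusted p = 7.22e-16). In J2KO the log2 fold change of Mael was 3.83 (SE 0.08), next to 3.80 in J2WT.

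Ddx4 rose in all 3 mutants as well. It had 52.9, 58.9 and 54.1 CPM in QKO EpiLCs, against 16.7, 22 and 21 CPM in QKO ESCs (log2 fold change 1.48, SE 0.08, adjusted p = 2.43e-13), and 48.8, 50.6 and 49.5 CPM in TKO EpiLCs, against 16.6, 17.7 and 15.8 CPM in TKO ESCs (log2 fold change 1.61, SE 0.07, adjusted p = 7.08e-12). The J2KO change was 2.01 (SE 0.13, adjusted p = 1.06e-14). Dazl rose only in QKO among the 5 lines, with 49.3, 57 and 48.4 CPM in EpiLCs, against 14.4, 14.5 and 15.6 CPM in ESCs (log2 fold change 1.80, SE 0.09, adjusted p = 1.29e-14). Its change was 0.17 in TKO (adjusted p = 0.179) and 0.39 in J2KO (adjusted p = 1.91e-07, under the 2-fold limit).

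Sycp1 rose in QKO and TKO. It had 26.5, 28.5 and 30.3 CPM in QKO EpiLCs, against 9.03, 9.28 and 9.78 CPM in QKO ESCs (log2 fold change 1.61, SE 0.10, adjusted p = 1.71e-12). TKO EpiLCs had 24.7, 23.4 and 24.7 CPM, against 14.8, 7.71 and 9.53 CPM in TKO ESCs, which scattered more (log2 fold change 1.21, SE 0.15, adjusted p = 1.94e-06). In J2KO its libraries overlapped, at 10.8, 14.9 and 12.3 CPM in EpiLCs and 12.6, 14.5 and 12.7 CPM in ESCs.

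Sycp3, a lateral element protein, rose in all 3 mutants and most in J2KO, with 24.1, 23.7 and 24.8 CPM in EpiLCs, against 1.43, 1.86 and 1.66 CPM in ESCs (log2 fold change 3.90, SE 0.11, adjusted p = 1.74e-23). The means were 5.64 CPM in QKO EpiLCs, against 2.15 CPM in QKO ESCs (log2 fold change 1.40, SE 0.21), and 6.41 CPM in TKO EpiLCs, against 1.9 CPM in TKO ESCs (1.75, SE 0.22). Chpt1 on the other strand was lower in EpiLCs of each mutant (log2 fold changes -1.28 in J2KO, -0.67 in TKO and -0.76 in QKO). Hormad1 rose in J2KO by the same 1.27 as in J2WT, and it was 0.60 and 0.59 in TKO and QKO, past the test but under 2-fold.

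**Figure D3:**
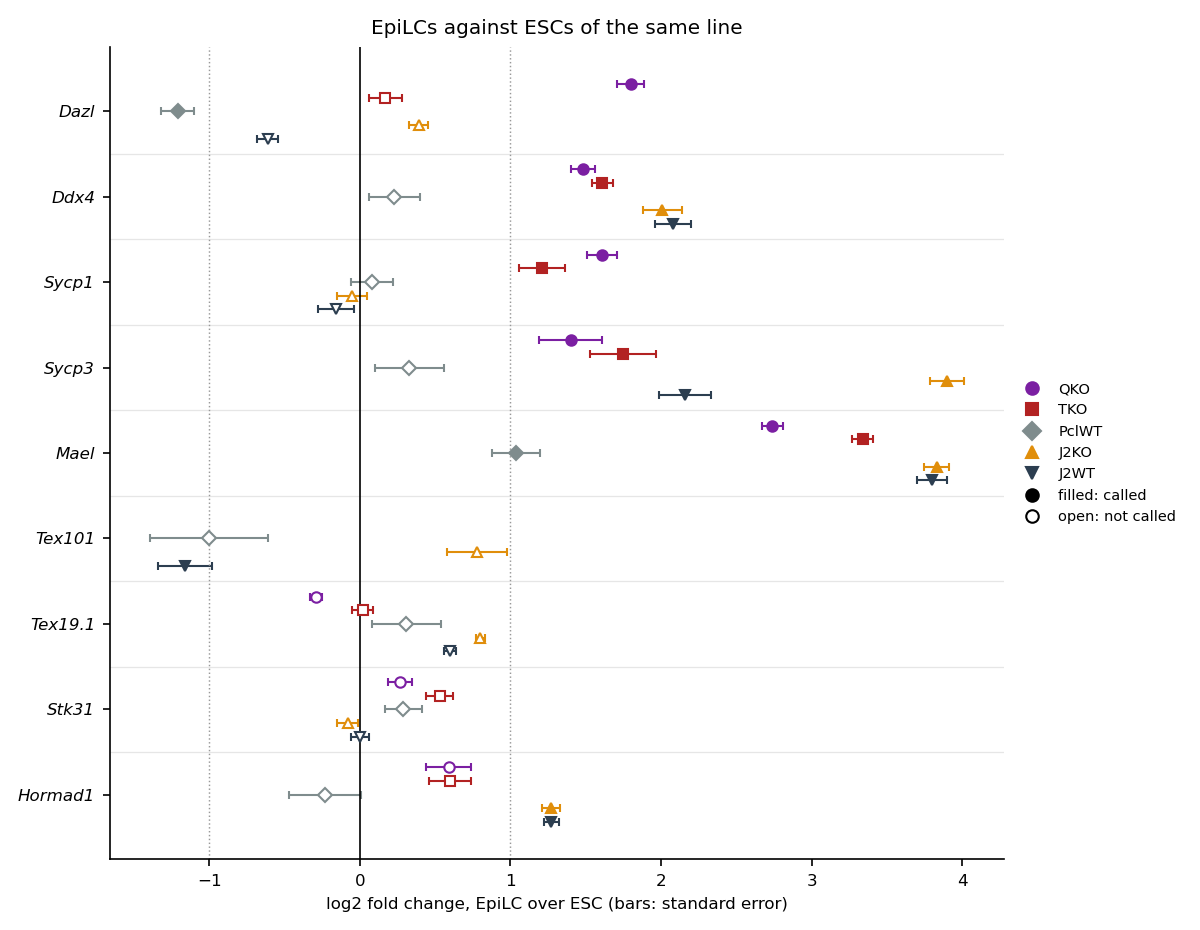
Log2 fold change of EpiLCs over ESCs for each member in 5 lines, with standard errors, in which filled symbols were called and open ones were not. Mael lies to the right in all lines, PclWT (grey) stays nearest 0 for Ddx4, Sycp3 and Mael, and Dazl runs from -1.21 in PclWT to 1.80 in QKO.

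Whether loss of PRC2 accessory proteins changed these genes at a given stage was asked against the matched wild type. In ESCs without Polycomb-like proteins no member rose and 3 fell in each mutant. In TKO ESCs Tex101, Tex19.1 and Dazl fell, 3 of 9 members, where 7.26% of 12449 genes were called lower and 6.54% higher. In QKO ESCs the same 3 of 9 fell, where 8.04% of 12296 genes were called lower and 5.78% higher. TKO and QKO share the PclWT libraries, so their values are not independent of each other.

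Tex19.1 had 58.4, 50.3 and 50 CPM in TKO ESCs, against 438, 399 and 387 CPM in PclWT ESCs (log2 fold change -2.99, SE 0.07, adjusted p = 5.90e-17). In QKO ESCs it had 118, 129 and 127 CPM (log2 fold change -1.73, SE 0.06, adjusted p = 2.17e-13). The loss was thus smaller in QKO than in TKO. Dazl had 14.4, 14.5 and 15.6 CPM in QKO ESCs and, in TKO ESCs, 19.8, 15.3 and 18.6 CPM, against 49.3, 46.8 and 45.1 CPM in PclWT ESCs (log2 fold changes -1.69, SE 0.08, adjusted p = 1.28e-11, and -1.43, SE 0.09, adjusted p = 7.85e-11).

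Tex101 had 0.232, 0.254 and 1.09 CPM in QKO ESCs and, in TKO ESCs, 0.403, 0.434 and 0.105 CPM, against 3.01, 2.68 and 2.78 CPM in PclWT ESCs, from 14, 9 and 81 reads over the 3 libraries of each. The log2 fold changes were -2.37 (SE 0.38) in QKO and -3.16 (SE 0.37) in TKO. All PclWT libraries stood above all mutant ones. Mael was higher in QKO ESCs (0.33) and lower in TKO ESCs (-0.78), both past the test and under 2-fold, and Ddx4, Sycp1, Sycp3 and Hormad1 lay between -0.75 and -0.22, of which Ddx4 in QKO did not pass the test (adjusted p = 0.0605). Stk31 was 0.70 higher in QKO ESCs (adjusted p = 2.70e-06), with all QKO libraries above all PclWT ones, and -0.10 in TKO ESCs. Markers of 2-cell-like cells, which share some germline transcripts, summed to 6.73 to 7.53 CPM in QKO ESCs and, in TKO ESCs, to 21.2 to 22.3 CPM, against 8.24 to 8.63 CPM in PclWT ESCs. Naive markers summed to 6230 to 6280 CPM in QKO ESCs and 6530 to 6890 CPM in TKO ESCs, against 4260 to 4420 CPM in PclWT ESCs. The part of either in the results was not tested.

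In EpiLCs the picture was split. In QKO EpiLCs 3 of 8 tested members rose (Mael, Dazl and Ddx4) and 1 fell (Tex19.1), where 6.09% of 12890 genes were called higher and 7.56% lower. In TKO EpiLCs 1 of 8 rose (Mael) and 1 fell (Tex19.1), where 6.91% of 12852 genes were called higher and 7.16% lower. With PclWT EpiLC replicate 1 or QKO EpiLC replicate 2 left out, 2 of 8 members rose in QKO (Mael and Dazl) and 1 fell. Of all genes, 6.81% were called higher and 6.69% lower without the former, and 5.25% and 5.93% without the latter. Tex101 was too low to test, at 27 and 7 reads over the 3 libraries of QKO and TKO EpiLCs, against 40 in PclWT EpiLCs.

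Mael had 122, 116 and 105 CPM in QKO EpiLCs and 79.6, 77.5 and 80.9 CPM in TKO EpiLCs, against 32.9, 25 and 23.9 CPM in PclWT EpiLCs. The log2 fold changes were 2.03 in QKO (SE 0.16, adjusted p = 3.74e-04) and 1.50 in TKO (SE 0.16, adjusted p = 0.00101), and 2.20 and 1.67 without PclWT EpiLC replicate 1. Dazl was higher only in QKO, with 49.3, 57 and 48.4 CPM, and it had 20.6, 20.2 and 17.3 CPM in TKO EpiLCs, against 21, 18.6 and 20.9 CPM in PclWT EpiLCs (log2 fold changes 1.31, SE 0.13, adjusted p = 7.09e-04, and -0.09, adjusted p = 0.629). These were 1.35 and -0.04 without PclWT EpiLC replicate 1, and the QKO value was 1.24 without QKO EpiLC replicate 2. Ddx4 was 1.03 higher in QKO EpiLCs (SE 0.15, adjusted p = 0.00344) and 0.87 higher in TKO EpiLCs (SE 0.15, adjusted p = 0.00545), and without PclWT EpiLC replicate 1 these were 0.89 and 0.74. The call of Ddx4 in QKO was lost without that library or without QKO EpiLC replicate 2 (0.98).

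Tex19.1 fell at this stage as well, with 109, 98.1 and 97.9 CPM in QKO EpiLCs and 50.7, 55.1 and 51.1 CPM in TKO EpiLCs, against 699, 416 and 386 CPM in PclWT EpiLCs, in which replicate 1 was high. The log2 fold changes were -2.35 (SE 0.25, adjusted p = 0.00106) and -3.30 (SE 0.27, adjusted p = 4.39e-04), and -2.00 and -2.96 without that library. Sycp1 was 0.83 and 0.60 higher in QKO and TKO EpiLCs (adjusted p = 0.00358 and 0.0101, under the 2-fold limit), with all mutant libraries above all PclWT ones. Stk31 was 0.67 higher in QKO EpiLCs (adjusted p = 0.00654), and 0.12 in TKO EpiLCs (adjusted p = 0.504). Sycp3 was 0.48 in QKO EpiLCs and 0.66 in TKO EpiLCs, and Hormad1 was 0.45 and 0.43, none past the test. All 4 passed it without PclWT EpiLC replicate 1, under the 2-fold limit, at 0.70 and 0.87 for Sycp3 (adjusted p = 0.00441 and 8.08e-04) and 0.68 and 0.66 for Hormad1 (adjusted p = 0.0026 and 0.00222). Sycp1 was then 0.84 and 0.60, and Stk31 0.76 and 0.20. The sum of the formative markers was also higher, at 2870 to 3250 CPM in QKO EpiLCs and 2290 to 2440 CPM in TKO EpiLCs, against 1090 to 1250 CPM in PclWT EpiLCs. Of those tested, 2 of 8 were called higher and 2 lower in QKO, and 4 of 9 higher and none lower in TKO. The sum rests largely on Dnmt3a, with means of 2610 CPM in QKO and 1490 CPM in TKO EpiLCs, against 460 CPM in PclWT EpiLCs. In QKO EpiLCs Otx2 was also higher (59.1 CPM, against 3.39 CPM in PclWT EpiLCs). Dnmt3b (214 CPM, against 430 CPM) and Pou3f1 (63 CPM, against 122 CPM) were lower there. The sum of the naive markers was higher as well (1700 to 1790 CPM in QKO and 767 to 835 CPM in TKO EpiLCs, against 392 to 491 CPM in PclWT EpiLCs). The 2-cell-like markers summed to 5.67 to 7.78 CPM in QKO EpiLCs and to 17.5 CPM or more (median 18) in TKO EpiLCs, against 8.8 to 9.61 CPM in PclWT EpiLCs, with 3 of 4 tested called higher in TKO. Their part in the differences above was not tested.

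**Figure D4:**
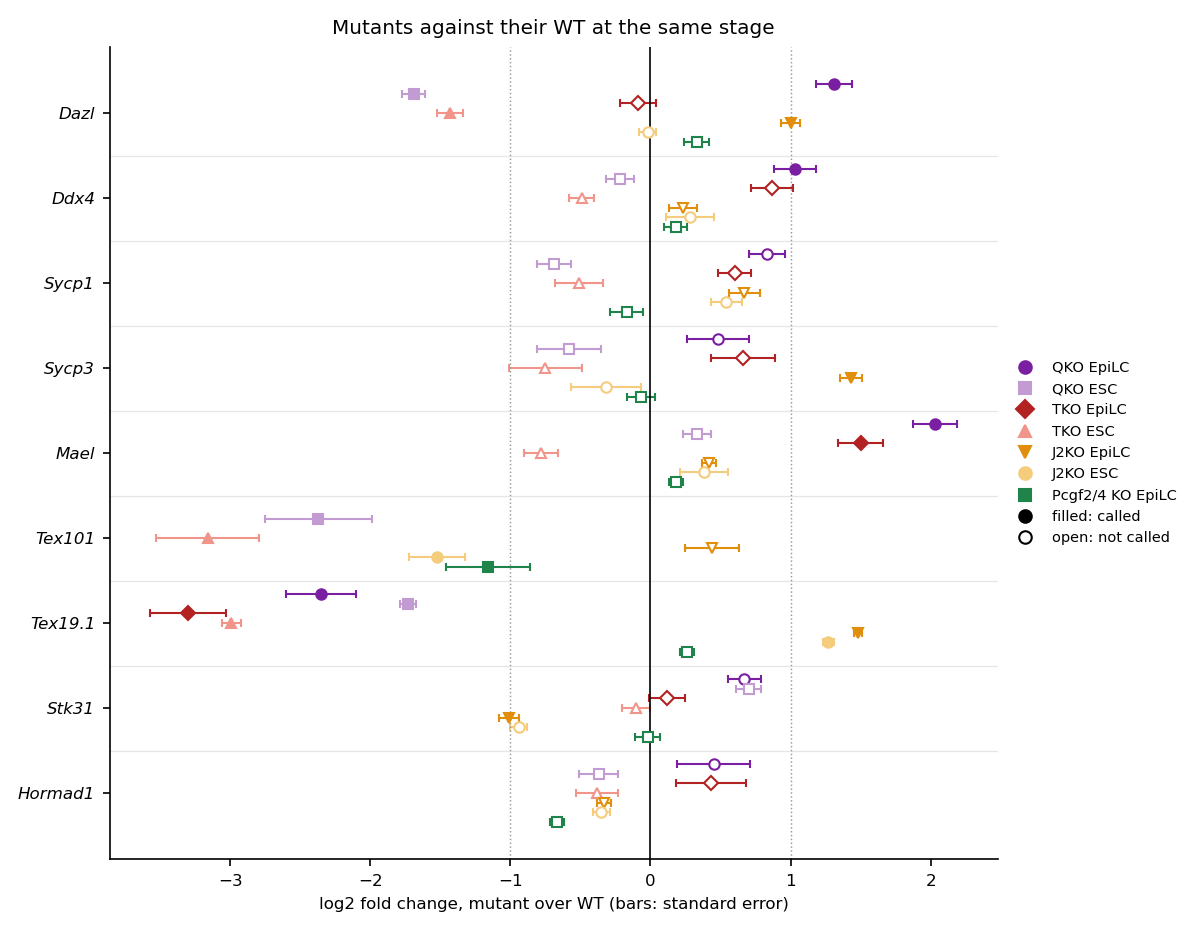
Log2 fold change of each mutant over its wild type for each member, at both stages where measured, with standard errors, filled where called. Tex19.1 lies left of 0 in QKO and TKO (-3.30 to -1.73) and right of 0 in J2KO (1.48 in EpiLCs and 1.27 in ESCs), and Dazl lies right of 0 in QKO EpiLCs (1.31) and left of 0 in QKO ESCs (-1.69).

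QKO was also compared directly with TKO, a line that keeps JARID2 and likewise lacks the Polycomb-like proteins. In ESCs 2 of 8 members were higher in QKO (Tex19.1 and Mael) and none lower, where 1.4% of 12166 genes were called higher and 3.13% lower. In EpiLCs 1 of 8 was higher (Dazl) and none lower, where 1.46% of 12745 genes were called higher and 3.38% lower. Tex19.1 had 118, 129 and 127 CPM in QKO ESCs, against 58.4, 50.3 and 50 CPM in TKO ESCs (log2 fold change 1.24, SE 0.06, adjusted p = 2.56e-12), and was 0.92 higher in QKO EpiLCs (SE 0.05, adjusted p = 6.87e-12), under the 2-fold limit.

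Mael had 16.9, 17.3 and 17.3 CPM in QKO ESCs, against 8.16, 7.71 and 8.17 CPM in TKO ESCs (log2 fold change 1.10, SE 0.11, adjusted p = 1.52e-07), and was 0.49 higher in QKO EpiLCs (adjusted p = 4.64e-08). Dazl had 49.3, 57 and 48.4 CPM in QKO EpiLCs, against 20.6, 20.2 and 17.3 CPM in TKO EpiLCs (log2 fold change 1.35, SE 0.08, adjusted p = 2.56e-11). In ESCs Dazl was -0.27 (SE 0.11, adjusted p = 0.0526), with overlapping libraries. Stk31 was 0.52 and 0.79 higher in QKO EpiLCs and ESCs, under the 2-fold limit, and Hormad1 and Sycp3 passed the test at neither stage. Without QKO EpiLC replicate 2 Dazl was 1.29 and Tex19.1 0.95 in EpiLCs. The naive markers summed to 1700 to 1790 CPM in QKO EpiLCs, against 767 to 835 CPM in TKO EpiLCs (7 of 11 called higher), and the 2-cell-like markers were lower in QKO at both stages (4 of 4 tested in ESCs and 3 of 4 in EpiLCs). Their part was not tested.

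Tex19.1 was higher in J2KO than in J2WT, whereas it was lower in TKO and QKO than in PclWT. The wild-type lines themselves differed, with 500 and 408 CPM in PclWT EpiLCs and ESCs, against 84.4 and 56.4 CPM in J2WT EpiLCs and ESCs. TKO EpiLCs and ESCs had 52.3 and 52.9 CPM. In J2KO EpiLCs 3 of 9 members rose (Tex19.1, Sycp3 and Dazl) and 1 fell (Stk31), where 6.08% of 13777 genes were called higher and 2.74% lower. In J2KO ESCs 1 of 9 rose (Tex19.1) and 1 fell (Tex101), where 6.82% of 13431 genes were called higher and 6.53% lower. Tex19.1 had 236, 236 and 232 CPM in J2KO EpiLCs, against 87.1, 82.2 and 84 CPM in J2WT EpiLCs (log2 fold change 1.48, SE 0.03, adjusted p = 1.92e-23), and 140, 135 and 136 CPM in J2KO ESCs, against 55.9, 57.1 and 56.2 CPM in J2WT ESCs (log2 fold change 1.27, SE 0.04, adjusted p = 3.05e-16).

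Sycp3 had 24.1, 23.7 and 24.8 CPM in J2KO EpiLCs, against 9.32, 7.98 and 9.77 CPM in J2WT EpiLCs (log2 fold change 1.43, SE 0.08, adjusted p = 9.21e-15), while Chpt1 was 0.19 (adjusted p = 0.0909) in the same comparison. In ESCs the libraries of Sycp3 overlapped (-0.32, adjusted p = 0.263). Dazl had 33, 33.7 and 34.3 CPM in J2KO EpiLCs, against 18.6, 16 and 16 CPM in J2WT EpiLCs, a log2 fold change at the 2-fold limit (1.00, SE 0.07, adjusted p = 2.69e-13), whose call was lost under several alternatives (0.96 to 1.00), and in ESCs it was -0.02 (adjusted p = 0.825). Stk31 had 16.8, 16.7 and 18.2 CPM in J2KO EpiLCs, against 36.4, 31.8 and 36.3 CPM in J2WT EpiLCs (log2 fold change -1.01, SE 0.07, adjusted p = 3.31e-13, and -0.98 without J2WT EpiLC replicate 1, below the limit), and it was -0.94 in ESCs (SE 0.06, adjusted p = 2.56e-11). The values of Stk31 lay on either side of the 2-fold limit, and its change did not differ between stages past the test (-0.08, adjusted p = 0.503).

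Tex101 had 1.78, 2.04 and 1.39 CPM in J2KO ESCs, against 5.92, 5.29 and 3.78 CPM in J2WT ESCs (log2 fold change -1.52, SE 0.20, adjusted p = 8.10e-07). In EpiLCs its libraries overlapped (0.44, adjusted p = 0.0438). Sycp1 was 0.67 and 0.54 higher in J2KO EpiLCs and ESCs, and Hormad1 was -0.33 and -0.35, all past the test and under 2-fold. Ddx4 and Mael were within 0.42 of J2WT at both stages. Pluripotency markers moved in the same comparisons. In EpiLCs naive markers summed to 979 to 989 CPM in J2KO, against 616 to 627 CPM in J2WT (4 of 11 called higher), and formative markers to 5290 to 5370 CPM in J2KO, against 4160 to 4250 CPM in J2WT (4 of 10 called higher). The formative sum includes Dnmt3a, at 1890 CPM in J2KO EpiLCs, against 838 CPM in J2WT EpiLCs. Dnmt3b in the same sum was at 1940 CPM, against 2210 CPM. In ESCs naive markers summed to 6370 to 6440 CPM in J2KO, against 5270 to 5490 CPM in J2WT, with none called, and fibroblast markers to 8.19 to 9.03 CPM, against 14.9 to 18.6 CPM. Their part was not tested.

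In Pcgf2/4 KO EpiLCs none of 9 members rose and 1 fell (Tex101), where 1.91% of 12754 genes were called higher and 3.92% lower. At an unadjusted p under 0.05, 6 of 9 members differed in either direction, where 61% of all genes tested did. Tex101 had 1.51, 0.679 and 0.865 CPM in Pcgf2/4 KO EpiLCs, against 2.22, 2.05 and 2.71 CPM in WT EpiLCs, from 32 and 73 reads (log2 fold change -1.16, SE 0.30, adjusted p = 0.00157), and its call was lost without Pcgf2/4 KO replicate 2 (-0.94). Tex101 met the minimum mean count of 15 through the WT libraries, which favours a fall. Hormad1 had 48.8, 44.5 and 48 CPM, against 74.2, 76.3 and 75.8 CPM in WT EpiLCs (log2 fold change -0.67, SE 0.05, adjusted p = 1.90e-11, under the 2-fold limit). Tex19.1, Dazl and Mael were 0.26, 0.33 and 0.18 higher, each past the test. Naive markers summed to 1170 to 1270 CPM in Pcgf2/4 KO EpiLCs, against 737 to 767 CPM in WT EpiLCs (7 of 11 called higher), and formative markers to 3180 to 3280 CPM, against 4440 to 4460 CPM (2 of 10 called lower). Fibroblast markers summed to 15.4 to 19.7 CPM, against 24.5 to 27.2 CPM, with Thy1, Dcn and Col1a2 called lower and Pdgfrb higher of 4 tested. The part of these markers was not tested.

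Several differences between a mutant and its matched wild type varied with the stage. The difference between a mutant's effect in EpiLCs and its effect in ESCs was tested as a contrast of 12 libraries. In QKO it was above 0 for 5 of 8 members (Dazl, Mael, Sycp1, Ddx4 and Sycp3) and below 0 for none, where 4.68% of 12704 genes were called above 0 and 2.56% below. In TKO it was above 0 for 5 of 8 (Mael, Sycp3, Ddx4, Dazl and Sycp1) and below 0 for none, where 4.42% of 12812 genes were called above 0 and 3.16% below. In J2KO it was above 0 for 3 of 9 (Tex101, Sycp3 and Dazl) and below 0 for none, where 6.16% of 13929 genes were called above 0 and 5.17% below. The contrasts of QKO and TKO use the same 6 PclWT libraries, so the smaller stage changes of PclWT given above enter both. Stage changes in QKO and TKO were smaller than in J2WT for Mael (2.74 and 3.34, against 3.80), Ddx4 (1.48 and 1.61, against 2.08) and Sycp3 (1.40 and 1.75, against 2.16). They were larger for Dazl (1.80 and 0.17, against -0.61) and Sycp1 (1.61 and 1.21, against -0.16). Neither mutant was tested against J2WT. The count was 6 of 8 in each without PclWT EpiLC replicate 1, with Hormad1 added, where 5.54% of all genes were called above 0 in QKO and 5.1% in TKO. Without QKO EpiLC replicate 2 it was 4 of 8 in QKO, with Sycp3 lost (1.03, adjusted p = 0.0758), where 4.26% of all genes were called above 0.

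Dazl differed most between stages in QKO, by 3.00 on the log2 scale (SE 0.14, adjusted p = 3.47e-07), with QKO at 1.31 in EpiLCs and -1.69 in ESCs. Its difference was 1.33 in TKO (SE 0.17, adjusted p = 3.16e-04) and 1.01 in J2KO (SE 0.09, adjusted p = 2.51e-10), where the call was lost under several alternatives (0.97 to 1.00). All QKO libraries lay above PclWT in EpiLCs and below it in ESCs. For Mael the difference was 2.27 in TKO (SE 0.18, adjusted p = 1.86e-05) and 1.70 in QKO (SE 0.18, adjusted p = 9.91e-05), but 0.03 in J2KO (SE 0.17, adjusted p = 0.897).

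Ddx4 differed by 1.35 in TKO (SE 0.17, adjusted p = 3.22e-04) and 1.25 in QKO (SE 0.20, adjusted p = 0.00134), and by -0.07 in J2KO (adjusted p = 0.805). Sycp1 differed by 1.53 in QKO (SE 0.16, adjusted p = 8.33e-05) and by 1.11 in TKO (SE 0.26, adjusted p = 0.0136), and the TKO value was 0.93 without TKO ESC replicate 2. Sycp3 differed by 1.74 in J2KO (SE 0.26, adjusted p = 1.54e-06), where Chpt1 also differed by 0.71, and by 1.40 in TKO (SE 0.35, adjusted p = 0.0194) and 1.05 in QKO (SE 0.31, adjusted p = 0.0391). The QKO call of Sycp3 was lost when any of 10 single libraries was left out, with adjusted p between 0.0508 and 0.108. Without PclWT EpiLC replicate 1 the differences in QKO were 3.04 for Dazl, 1.87 for Mael, 1.12 for Ddx4, 1.53 for Sycp1 and 1.28 for Sycp3, and in TKO 1.39, 2.45, 1.22, 1.11 and 1.61 in the same order.

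For Tex19.1 and Stk31 no difference between stages was called. Their differences were -0.61 and -0.03 in QKO (adjusted p = 0.151 and 0.897), -0.32 and 0.21 in TKO (adjusted p = 0.474 and 0.376) and 0.20 and -0.08 in J2KO (adjusted p = 0.0016 and 0.503), none past the 2-fold limit. Without PclWT EpiLC replicate 1 they were -0.27 and 0.06 in QKO (adjusted p = 0.0152 and 0.751) and 0.02 and 0.30 in TKO (adjusted p = 0.9 and 0.0856). Hormad1 was 0.81 in QKO and 0.80 in TKO (adjusted p = 0.1 and 0.0989), and it passed without PclWT EpiLC replicate 1 (1.04 and 1.03, adjusted p = 0.00172 and 0.00157).

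**Figure D5:**
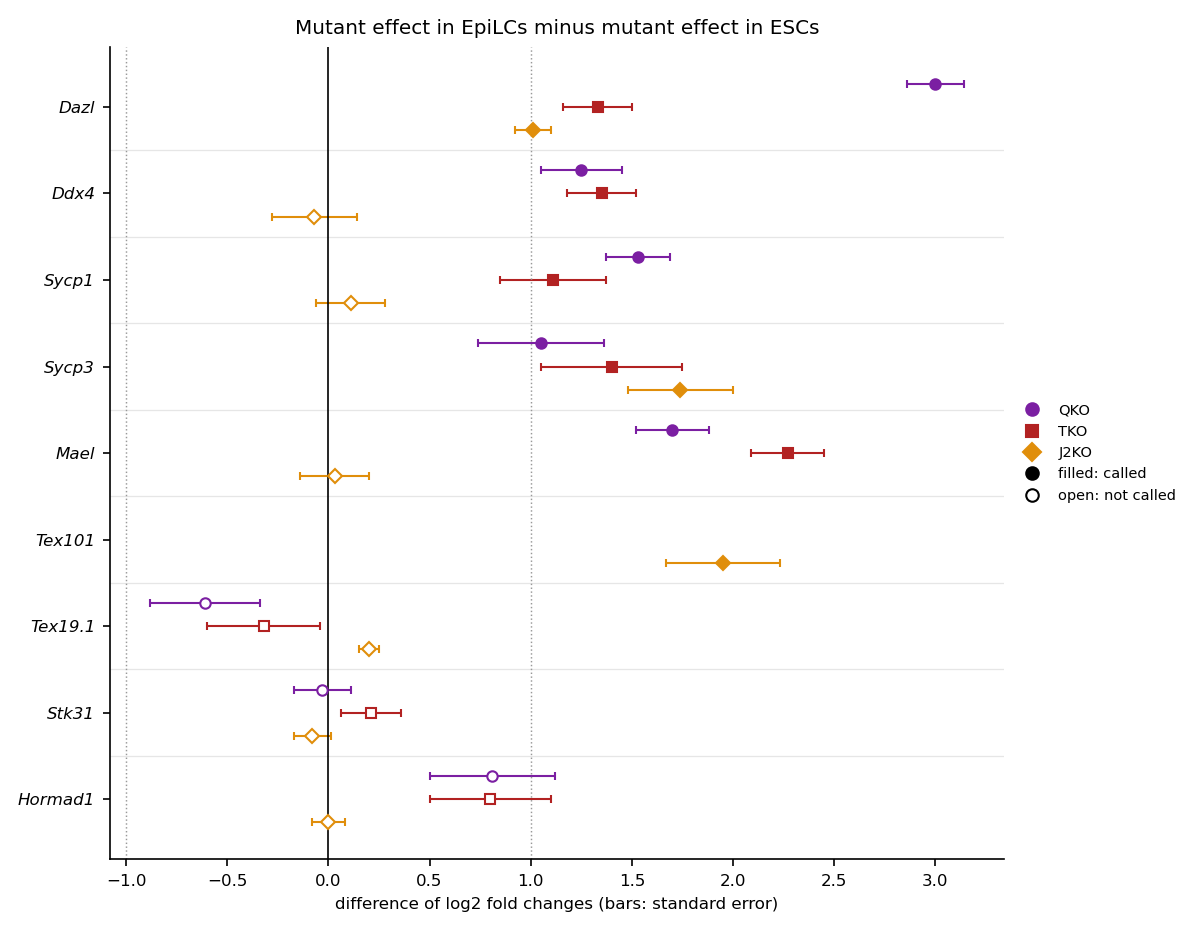
Difference between a mutant's log2 fold change in EpiLCs and that in ESCs for each member, with standard errors, filled where called. Points of QKO and TKO lie between 1.05 and 3.00 for Dazl, Ddx4, Sycp1, Sycp3 and Mael, and those of Tex19.1 and Stk31 lie near or below 0.

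The members were set beside 84 other germline genes in 4 lists (synaptonemal complex, cohesin and axis; meiotic recombination and entry; piRNA and germ granule; testis and germ cell). The stage change called 31 of 59 tested genes higher in QKO, 27 of 56 in TKO, 29 of 62 in J2KO, 28 of 61 in J2WT and 14 of 61 in PclWT, with medians of 1.16, 0.91, 0.91, 0.88 and 0.36 on the log2 scale. The genes called lower numbered 2, 2, 5, 7 and 4 in the same lines. In the same order, 12.2%, 14%, 15.2%, 15.4% and 9.21% of all genes tested were called higher. The shares of all genes called lower were 7.01%, 8.61%, 12%, 14.8% and 6.2%. PclWT was thus the line with the fewest of these genes called higher, also without PclWT EpiLC replicate 1 (19 of 61, where 9.83% of all genes were called higher). PclWT also had the smallest share of all genes called higher.

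Among the piRNA genes, Piwil4 had a mean of 13.9 ± 1.14 CPM in QKO EpiLCs, against 0.481 ± 0.273 CPM in QKO ESCs (SD, n = 3), and 6.42 ± 0.826 CPM in J2WT EpiLCs, against 0.297 ± 0.199 CPM in J2WT ESCs. Meioc, which extends meiotic prophase, had 99.4 ± 8.4 CPM in QKO EpiLCs, against 19.3 ± 2.46 CPM in QKO ESCs, and 45.2 ± 2.71 CPM in J2WT EpiLCs, against 2.98 ± 0.368 CPM in J2WT ESCs. Smc1b, a meiotic cohesin subunit, rose to 33.7 ± 0.949 CPM in TKO EpiLCs, against 1.54 ± 0.296 CPM in TKO ESCs. All of these were called, with log2 fold changes from 2.36 for Meioc in QKO to 4.86 for Piwil4 in QKO.

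Against PclWT, more of the other germline genes were called lower than higher in each comparison. In TKO ESCs 26 of 53 tested fell and 3 rose, and in QKO ESCs 22 of 54 fell and 4 rose. In TKO EpiLCs 16 of 61 fell and 8 rose, and in QKO EpiLCs 16 of 64 fell and 11 rose. The medians were -0.99, -0.72, -0.34 and 0.06 in the same order. All genes tested were also called lower more often than higher. The shares were 7.26% lower and 6.54% higher in TKO ESCs, and 8.04% and 5.78% in QKO ESCs. In EpiLCs they were 7.16% and 6.91% in TKO, and 7.56% and 6.09% in QKO. Without PclWT EpiLC replicate 1 the counts were 13 of 60 lower and 7 higher in TKO EpiLCs, and 13 of 65 lower and 13 higher in QKO EpiLCs, and without QKO EpiLC replicate 2 they were 13 of 63 lower and 10 higher. The shares of all genes in these 3 fits were 5.9% lower and 7.05% higher, 6.69% and 6.81%, and 5.93% and 5.25%. Tex19.2, the neighbouring paralogue of Tex19.1, had 2.47 ± 0.763 CPM in QKO ESCs and, in TKO ESCs, 0.944 ± 0.283 CPM, against 32.4 ± 3.59 CPM in PclWT ESCs (log2 fold changes -3.72 and -5.13). In J2KO EpiLCs it rose with Tex19.1, to 11.6 ± 0.786 CPM, against 4.16 ± 0.323 CPM in J2WT EpiLCs (log2 fold change 1.48, SE 0.11, adjusted p = 5.80e-12). Stra8, the gatekeeper of meiotic entry, fell in QKO ESCs to 1.54 ± 0.578 CPM and in TKO ESCs to 2.62 ± 0.455 CPM, against 26 ± 1.38 CPM in PclWT ESCs. Rnf17 and Piwil2 ran against the fall, with Piwil2 at 66.8 ± 2.41 CPM and Rnf17 at 208 ± 10.3 CPM in QKO EpiLCs, against 11.3 ± 3.08 and 72.1 ± 8.17 CPM in PclWT EpiLCs. The log2 fold changes of Piwil2 and Rnf17 were 2.52 and 1.49, or 2.34 and 1.42 without PclWT EpiLC replicate 1.

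In J2KO the other germline genes were called higher in 10 of 53 and lower in 5 of 53 in ESCs, and higher in 13 of 62 and lower in 2 of 62 in EpiLCs. Of all genes, 6.82% were called higher and 6.53% lower in J2KO ESCs, and 6.08% and 2.74% in J2KO EpiLCs. Syce1, a central element gene, had 41.7 ± 1.55 CPM in J2KO ESCs, against 8.62 ± 0.618 CPM in J2WT ESCs (log2 fold change 2.26, SE 0.07). In Pcgf2/4 KO EpiLCs 2 of 62 were higher and 7 lower, where 1.91% of all genes were called higher and 3.92% lower. Those lower included Tdrd1, Tdrd5 and Piwil1 of the piRNA list (log2 fold changes -1.04, -1.19 and -1.29). QKO over TKO gave 8 of 46 higher and 1 lower in ESCs and 3 of 58 higher and none lower in EpiLCs. The shares of all genes were 1.4% higher and 3.13% lower in ESCs, and 1.46% and 3.38% in EpiLCs. The difference of mutant effects between stages was above 0 for 18 of 63 in QKO and 14 of 60 in TKO, with none below 0. Of all genes, 4.68% were called above 0 and 2.56% below in QKO, and 4.42% and 3.16% in TKO. For J2KO the difference was above 0 for 4 and below 0 for 5 of 63. These are 6.35% and 7.94%, near the shares of all genes (6.16% and 5.17%).

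Genes of the machinery that is known to silence this class were read beside the members. Of 14 PRC1.6 subunit genes, none was called between a mutant and its wild type or between QKO and TKO, with list medians from -0.06 to 0.28 on the log2 scale, and in the transition E2f6 and Yaf2 rose in TKO (log2 fold changes 1.03 and 1.23), Tfdp1 in J2WT (1.12), Pcgf6 in J2KO (1.05) and Yaf2 in PclWT (1.08). Without PclWT EpiLC replicate 1 the PclWT value of Yaf2 was 1.00, at the 2-fold limit. Of 15 genes of DNA and H3K9 methylation, the de novo methyltransferase Dnmt3a had 2610 ± 167 CPM in QKO EpiLCs and 1490 ± 55.3 CPM in TKO EpiLCs, against 460 ± 63 CPM in PclWT EpiLCs (log2 fold changes 2.47 and 1.66). It had 74.8 ± 2.75 and 85.8 ± 3.13 CPM in QKO and TKO ESCs, against 201 ± 7.46 CPM in PclWT ESCs (-1.45 and -1.27). Dnmt3b fell in QKO EpiLCs to 214 ± 14.2 CPM, against 430 ± 72.5 CPM in PclWT EpiLCs (-1.04). The demethylase gene Tet2 was higher in QKO and TKO EpiLCs (1.82 and 1.86, or 1.44 and 1.48 without PclWT EpiLC replicate 1). Without QKO EpiLC replicate 2 the QKO calls of Dnmt3b (-0.99) and Tet2 (1.87, adjusted p = 0.0577) were lost. Dnmt3a was 2.37 in QKO EpiLCs and 1.56 in TKO EpiLCs without PclWT EpiLC replicate 1.

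Of 12 factors of primordial germ cells, the transition called none of 10 tested higher and 6 lower in QKO, 1 and 4 of 10 in TKO, 2 and 4 of 10 in J2KO, 3 and 5 of 11 in J2WT and 2 and 3 of 11 in PclWT. Over all genes the shares were 12.2% higher and 7.01% lower in QKO, 14% and 8.61% in TKO and 15.2% and 12% in J2KO. They were 15.4% and 14.8% in J2WT and 9.21% and 6.2% in PclWT. In the transition Prdm14 fell in all 5 lines, with a log2 fold change of -2.24 in QKO and -5.60 in J2WT. In QKO EpiLCs it had 15.4 ± 0.804 CPM, against 1.76 ± 0.3 CPM in PclWT EpiLCs (log2 fold change 3.08, SE 0.17, adjusted p = 1.26e-04, and 2.97 without PclWT EpiLC replicate 1). Dppa3 (Stella) went the other way, with 0.371 ± 0.102 CPM in QKO EpiLCs and 3.13 ± 0.39 CPM in TKO EpiLCs, against 53.9 ± 23 CPM in PclWT EpiLCs, which varied widely. Its log2 fold changes were -7.21 and -4.15, or -6.79 and -3.73 without PclWT EpiLC replicate 1. Prdm1 (BLIMP1) was higher in QKO and TKO ESCs, at 12.3 ± 1.65 and 14.9 ± 0.472 CPM, against 2.7 ± 0.363 CPM in PclWT ESCs. Of 10 factors tested against PclWT, 2 were called higher and 1 lower in QKO EpiLCs, and 1 and 1 in TKO EpiLCs. In ESCs 2 were called higher and none lower in QKO, and 2 and 1 in TKO. The shares of all genes higher and lower were 6.09% and 7.56%, 6.91% and 7.16%, 5.78% and 8.04%, and 6.54% and 7.26% in the same order.

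The genes most like each member over the 12 group means were found by Pearson correlation of log2 CPM, which shares libraries and line differences and is given as a description. Mael was most like Tbc1d1 and Fam169a (r = 0.96 each), Ddx4 most like Pms1 and Ap1s3 (0.97 each) and Sycp1 most like Slc16a14 (0.98) and Syt7 (0.94). Sycp3 was most like Slc35d3 and Bhlha15 (0.97 each), Hormad1 most like Gm7993 (0.99) and Aass (0.97) and Tex19.1 most like 0610009B22Rik (0.97) and Mrpl55 (0.96). Tex101 was most like Rpl10l (0.95), a testis ribosomal protein gene, and Xlr4b (0.93). Dazl and Stk31 had no close match, at most 0.83. Among the members, the closest pairs were Sycp3 with Mael (0.81) and Ddx4 with Mael (0.80), and Ddx4 with Tex101 was -0.59.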

How the data were processed

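RNA-seq was made by poly(A) selection with a kit that does not mark strand, in 36 libraries of 12 groups of 3. The deposited values were raw counts per gene that the authors made with STAR on GRCm38, of which the unstranded column was used, so reads of a gene and its antisense partner cannot be told apart. The submitters' processing notes also name FastQC, DESeq2 and deepTools. Reads not in a gene, 23.22 to 30.24% per library, were left out of library sizes. Depth was 6784578 to 18026492 counts in genes per library, which limits the precision of low genes such as Tex101.

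Groups were taken from the labels. Names for 55141 of 55401 gene IDs, positions and exon lengths came from GENCODE. In each comparison, genes whose normalized count averaged 15 or more were tested with edgeR 4.0.16 (R 4.3.3, TMM, quasi-likelihood F-test) on the 6 libraries compared, or on 12 for a difference of changes, with Benjamini-Hochberg adjustment over all genes tested. Calls required both an adjusted p below 0.05 and a change of over 1 on the log2 scale, up or down. The standard error is the log2 fold change divided by the root of F. Levels are CPM scaled by TMM over all libraries, and RPKM where genes are compared. The test was tested on simulated counts. Alternatives were RLE size factors, DESeq2 1.42.0, no count filter, a CPM of at least 1 in 3 libraries, a replicate block, all libraries of a line family, both WT lines together, leaving out each library, and RPKM for levels.

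The members and gene lists were chosen with earlier results of these data known. All members were described, the 2 genes most like each were named by Pearson correlation, and genes of other lists were named only from the called genes with the smallest adjusted p, at most 4 a list and comparison. In PclWT, EpiLC and ESC libraries with 1 number shared their deviations from the group means (r = 0.452, 0.242 and 0.205 for replicates 1, 2 and 3). The highest r with a library of another number was -0.22, 0.19 and 0.256. A pairing by number thus stood out for replicate 1 only, the number of the EpiLC library that stood apart, and no label gives a pairing. In no other comparison did all 3 correlations of libraries with 1 number pass 0.1.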

Additional observations from a re-analysis of the deposited data

Results flagged for a closer look

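Each of the following changes differed between stages or lines by a test of the difference itself (edgeR, log2 scale). The effect in J2KO differed between EpiLCs and ESCs for Tex101 (1.95), Sycp3 (1.74) and Dazl (1.01). The effect in TKO differed between EpiLCs and ESCs for Mael (2.27), Sycp3 (1.40), Ddx4 (1.35), Dazl (1.33) and Sycp1 (1.11). The effect in QKO differed for Dazl (3.00), Mael (1.70), Sycp1 (1.53), Ddx4 (1.25) and Sycp3 (1.05). The change of EpiLCs over ESCs was smaller in PclWT than in J2WT for Mael (-2.75), Ddx4 (-1.84), Sycp3 (-1.81) and Hormad1 (-1.48). The TKO, QKO and line contrasts all use the PclWT libraries. Of these, Dazl in J2KO, Sycp3 in QKO and in TKO and Sycp1 in TKO lost their calls when single libraries were left out, and Dazl in J2KO also without a count filter.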

How the results depend on the processing

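Of 154 member changes tested, 59 were called, of which 48 kept the call under every alternative run, 11 lost it under at least 1 and 0 turned direction, and 5 that were not called passed under at least 1. The alternatives include the fit of both WT lines, which tests a stage change shared by them and so a different quantity. RLE size factors moved no member's log2 fold change by more than 0.02. RPKM moved 8 of 126 ratios of mean levels by more than the spread of replicates.

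Without a count filter more genes were tested and more were called. The adjusted p of single genes changed as well, as for Stk31 in J2KO EpiLCs (2.43e-48, against 3.31e-13 with the filter, edgeR). What part the added genes had in the larger counts was not tested. Without the filter the counts higher and lower were 3653 and 3183 for the stage change in J2WT, 3688 and 2646 in J2KO, 2937 and 1766 in TKO, and 2563 and 1500 in QKO. They were 1591 and 1518 for J2KO ESCs, 1432 and 789 for J2KO EpiLCs, 1317 and 1654 for TKO ESCs, 1175 and 1798 for QKO ESCs, 333 and 709 for QKO over TKO in ESCs, 353 and 732 in EpiLCs, and 461 and 985 for Pcgf2/4 KO, and 1426 were lower in TKO EpiLCs. Members called were then 0 higher for stage in PclWT, 0 lower in J2KO EpiLCs, 2 lower in TKO EpiLCs and 2 higher for QKO over TKO in EpiLCs.

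With both WT lines in 1 fit, with terms for line and stage, the value tested was 1 stage change shared by both lines. By it 1342 genes were lower in EpiLCs and 3 members higher. The shared change was -0.04 for Sycp1 and 0.61 for Hormad1, against 0.08 and -0.23 in PclWT alone. The calls of Hormad1 in J2WT (shared change 0.62) and of Dazl in PclWT (shared change -0.91) were not kept in that fit. The calls of Dazl (0.96 to 1.00) and Stk31 (up to -0.98) in J2KO EpiLCs and of Dazl in the J2KO difference between stages (0.97 to 1.00) were lost under several alternatives, since they lie at the 2-fold limit. Sycp3 in the TKO difference had an adjusted p of 0.0539 by edgeR without PclWT ESC replicate 3.

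Leaving out 1 library gave 0 to 1 members higher and 1 to 2 lower for stage in PclWT, 0 to 1 lower in J2KO EpiLCs and 0 to 1 lower in Pcgf2/4 KO. Changes that were near 0 crossed it, from -0.01 to 0.47 for Tex19.1 and -0.44 to 0.01 for Hormad1 (stage, PclWT), -0.17 to 0.07 for Sycp1 (stage, J2KO), -0.02 to 0.09 for Tex19.1 (stage, TKO), -0.07 to 0.02 for Dazl (J2KO ESCs), -0.38 to 0.11 for Sycp1 and -0.08 to 0.36 for Sycp3 (QKO over TKO, ESCs), -0.13 to 0.08 for Hormad1 (QKO over TKO, EpiLCs) and -0.09 to 0.05 for Stk31 (Pcgf2/4 KO). In differences between stages they ran from -0.21 to 0.04 for Ddx4, -0.04 to 0.22 for Sycp1 and -0.16 to 0.15 for Mael (J2KO), -0.49 to 0.02 for Tex19.1 (TKO) and -0.07 to 0.06 for Stk31 (QKO), and from -0.44 to 0.46 for Tex101 between the WT lines.

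With the replicate number as a block, the counts of members called were as without it in every comparison (5 higher and 0 lower for stage in QKO, 4 and 1 in J2WT, 1 and 1 in PclWT). Depth limits Tex101, with 1 to 95 reads per library.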
